A study of Homo sapiens with 4 samples.

Results

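The transcription factor and effector genes of the integrated stress response, ATF4, ATF3, ATF5, DDIT3, CEBPB, CEBPG, JDP2, PPP1R15A, NUPR1 and CHAC1, were examined in U2OS cells with and without knockdown of PURB. They were taken by gene symbol, as known regulators and effectors of the ATF4 pathway, from a table of 39519 genes. The choice was made with earlier results of these data known. All 10 were present, and all 10 belonged to the 14269 genes that reached at least 1 TPM in at least 2 of the 4 libraries and were tested. U2OS is an established human osteosarcoma cell line, and PURB encodes a protein that binds single-stranded DNA and RNA. The sh-NC group (2 libraries) received DMSO. The sh-PURB group (2 libraries) carried an inducible hairpin against PURB and received doxycycline, an antibiotic that also inhibits protein synthesis on mitochondrial ribosomes, at 5 µg/ml. The knockdown lasted 72 h. Hairpin and doxycycline differ together between the groups and cannot be told apart. The labels give no hairpin sequence and do not say whether the cells were 1 clone. They also do not say that libraries of a group came from separate cultures, so the spread between libraries may be technical. The standard errors, intervals and p-values below come from limma, which combines a gene's own spread with that of genes at a similar level.

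The integrated stress response starts when kinases phosphorylate the translation initiation factor eIF2 on its alpha subunit. General translation then falls, while a few mRNAs with upstream open reading frames, ATF4 among them, are translated more. ATF4 protein is a basic leucine zipper (bZIP) factor that pairs with C/EBP and other bZIP proteins and binds C/EBP-ATF response elements near genes of amino acid metabolism, redox balance and cell death. Several of its targets are themselves bZIP factors, and others (PPP1R15A, CHAC1) limit or carry out the response. RNA sequencing measures the mRNA of these genes and not their translation or protein.

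The share of each gene was given as TPM (a length-corrected share of all transcripts), which keeps no read depth, so the number of reads behind a value is unknown. PURB itself stood at 5.29 and 6.55 TPM in sh-NC and at 2.46 and 2.69 TPM after knockdown, 43.5% of the control mean (limma adjusted p = 0.102). A limma fit was also run on protein-coding genes only, each library rescaled to 1 sum. Its PURB difference was -1.07 on the log2(TPM + 1) scale (limma adjusted p = 0.0314). SPARC (220 to 262 TPM) and VIM (298 to 342 TPM) were abundant in every library and COL1A1 and RUNX2 were present, while the osteoblast lineage markers SP7, ALPL, BGLAP, TWIST1 and COL1A2 were below 1 TPM in all 4.

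DNA around the C/EBP-ATF core element is shown first, because it is the known landing site of ATF4 and its partners and is found at the starts of some of these genes. RefSeq promoter sequences (GRCh38.p14, 250 bases before to 50 bases after each transcript start) were at hand for 9 of the 10 genes, all but NUPR1, at 18 starts. The core TGATGCAA, searched on both strands, occurred at starts of 3 of the 9 genes, CEBPG, JDP2 and CHAC1. Of all 27305 genes in the promoter table (35116 promoters), 1.08% had it (0.866% of promoters). The 9 genes had more starts per gene than the table as a whole, so more sequence was searched for each. The looser TGATGNAA, which includes the core, added ATF3 and was present in 4.46% of all genes. The cAMP response element TGACGTCA was found in PPP1R15A alone of the 9 and in 2.25% of all genes. The AP-1 element TGANTCA was found in ATF5 and DDIT3 and in 9.37% of all genes. Each element is given below in capitals with 10 flanking bases, 5′ to 3′ on the strand that carries the letters as written above. The letters are a description of the sequence, and binding was not measured. Sequence beyond 250 bases before or 50 bases after a start was not searched. An element not listed for a gene is absent from these windows only.

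JDP2: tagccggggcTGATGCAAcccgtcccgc
CEBPG: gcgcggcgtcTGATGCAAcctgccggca
CHAC1: ctggcaggagTGATGCAAcggcagggga
ATF3: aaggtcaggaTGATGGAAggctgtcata
PPP1R15A: cctctcttcgTGACGTCAgcacgccggg
DDIT3: cgcgcgcgcaTGACTCAcccacctcct
ATF5: gagagtgctgTGACTCAtgctggactc

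The JDP2 stretch lies at chr14:75427996-75428023 on the plus strand, and its element begins 16 bases before a transcript start. The CEBPG stretch lies at chr19:33374061-33374088 on the plus strand, with the element 42 bases before a start. Both elements are intronic in the GENCODE v29 gene models, since other transcripts start farther upstream. The CHAC1 stretch lies at chr15:40953252-40953279 and is written from the minus strand (the gene is on the plus strand). Its element is 209 bases before the start and inside an exon of a longer GENCODE v29 transcript. The ATF3 stretch, at chr1:212565206-212565233 on the plus strand, and the PPP1R15A stretch, at chr19:48872353-48872380 on the plus strand, lie upstream of the annotated genes, 191 and 58 bases before the starts. The DDIT3 stretch, at chr12:57520739-57520765 on the minus strand like the gene, is intronic and 238 bases before a start. The ATF5 stretch, at chr19:49928708-49928734 on the plus strand, is exonic in GENCODE v29 and 188 bases before a start.

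The 10 genes did not all differ in 1 direction. The sh-PURB libraries both exceeded the 2 controls for 6 genes (ATF4, ATF3, JDP2, CEBPG, CHAC1 and NUPR1), fell short of them for 1 (CEBPB), and overlapped with them for 3 (DDIT3, ATF5 and PPP1R15A). Over all tested genes, 18.6% lay above in this way and 29.3% below. None of the 10 passed an adjusted p of 0.05 in the limma fit over all genes, where 0.287% of genes did. At an unadjusted p under 0.05 in the same fit, 5 of the 10 were higher and 0 lower, where 5.77% of all genes were higher and 9.53% lower. A limma fit that kept protein-coding genes only, each library rescaled to 1 sum, called 4 of the 10 higher (ATF4, JDP2, CHAC1 and NUPR1) and 0 lower, where 1.32% of its 11927 genes were called higher. In that fit the prior degrees of freedom were 5.68 in place of 2.92, so the test itself differs along with the gene set. The median difference of the 10 genes was 0.47 on the log2(TPM + 1) scale against -0.06 for all tested genes. CHAC1 was tested only because of its sh-PURB libraries, since its controls alone miss the filter on low values. Its place in these counts is therefore no support. Without CHAC1, 5 of the other 9 genes had both sh-PURB libraries above the controls, 4 were higher at an unadjusted p under 0.05, 3 were called in the protein-coding fit, and the median was 0.34. Without sh-PURB replicate 1 the count at an unadjusted p under 0.05 was 3 in place of 5.

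**Figure D1:**
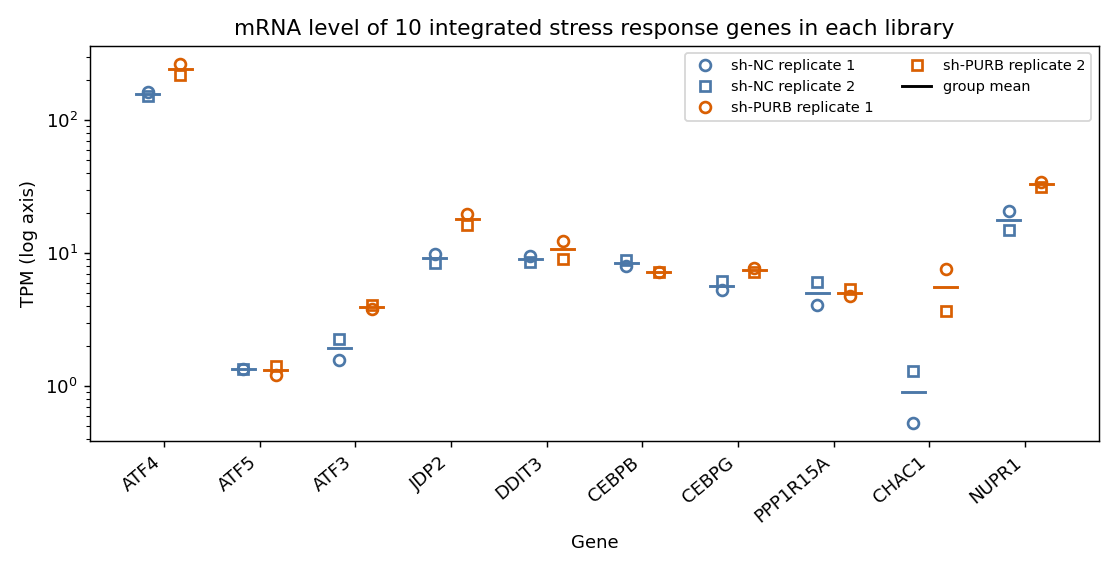
TPM of each gene (log axis) in the 2 sh-NC and 2 sh-PURB libraries. Points are libraries and short lines are group means. ATF4 lies above all other genes in every library, and the groups are apart for ATF4, ATF3, JDP2, CEBPB, CEBPG, CHAC1 and NUPR1.

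The levels spanned a wide range. In sh-NC the order by mean TPM was ATF4, NUPR1, JDP2, DDIT3, CEBPB, CEBPG, PPP1R15A, ATF3, ATF5 and CHAC1. Libraries of neighbours in this order overlapped for JDP2 and DDIT3, DDIT3 and CEBPB, and CEBPG and PPP1R15A, so these neighbours did not differ beyond their spread. In sh-PURB the order was ATF4, NUPR1, JDP2, DDIT3, CEBPG, CEBPB, CHAC1, PPP1R15A, ATF3 and ATF5, with overlap between CEBPB and CHAC1 and between CHAC1 and PPP1R15A. CHAC1 thus went from the lowest mean of the 10 to the seventh. The summed TPM of the 10 genes was 224 and 209 in sh-NC and 363 and 302 in sh-PURB, and ATF4 made up 71.7% to 72.9% of that sum in each of the 4 libraries.

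ATF4 (chromosome 22, 39519695 to 39522685, plus strand, GRCh38, GENCODE v29) encodes the central factor of the pathway. Its mRNA stood at 164 and 152 TPM in sh-NC and at 264 and 217 TPM in sh-PURB (158 ± 8.46 against 241 ± 33.8 TPM, mean ± SD, n = 2 each). The sh-PURB libraries were the 2 highest, and their spread was wider than that of the controls. The ratio of means was 1.53, and single sh-PURB libraries were at 1.32 to 1.75 times single sh-NC libraries. The log2(TPM + 1) difference was 0.60 with a standard error of 0.13 (95% interval 0.27 to 0.93, limma adjusted p = 0.131). This difference stood at the 95.5th percentile of all tested genes. In the protein-coding fit the difference was 0.65 (limma adjusted p = 0.0364). The processed copies ATF4P1, ATF4P2, ATF4P3 and ATF4P4, which resemble the ATF4 mRNA and can draw its reads, were listed at no more than 0.0871 TPM in any library.

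ATF5 (chromosome 19, 49928702 to 49933935, plus strand) encodes the closest relative of ATF4, which is likewise under translational control and is linked to the mitochondrial stress response. It stood at 1.36 and 1.34 TPM in sh-NC and at 1.22 and 1.42 TPM in sh-PURB. One sh-PURB library lay below and the other above both controls. The log2(TPM + 1) difference was -0.02, with a 95% interval from -0.53 to 0.50 (limma adjusted p = 0.982), so changes of either sign within that interval were not distinguishable. The sign turned to 0.05, 0.07 and 0.10 with median-ratio rescaling, quantile normalization and recomputed TPM, to 0.02 among protein-coding genes alone, and to 0.05 without sh-PURB replicate 1. Exons of ATF5 share 626 bases with NUP62 on the opposite strand (7.70 to 10.1 TPM in the 4 libraries). The sources used here do not say whether counting used strand. Without strand, reads that lie within the shared bases cannot be told apart by position.

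ATF3 and JDP2 encode related bZIP proteins that act mostly as repressors, ATF3 as an early stress-induced factor and JDP2 as a partner of JUN and ATF proteins. ATF3 (chromosome 1, 212565334 to 212620777, plus strand) stood at 1.58 and 2.27 TPM in sh-NC and at 3.83 and 4.08 TPM in sh-PURB. The groups were apart at these low levels, and the ratio of means was 2.06. JDP2 (chromosome 14, 75427716 to 75474111, plus strand) stood at 9.83 and 8.41 TPM in sh-NC and at 19.6 and 16.3 TPM in sh-PURB. Every sh-PURB library was at 1.66 times a control or more. The JDP2 difference on the log2(TPM + 1) scale, 0.90 with a standard error of 0.15, had the smallest p of the 10 genes (limma adjusted p = 0.0944) and was called in the protein-coding fit (1.01, limma adjusted p = 0.0251). The ATF3 difference was 0.77 with a standard error of 0.20 (limma adjusted p = 0.180, and 0.0663 in the protein-coding fit). The antisense row JDP2-AS1, whose exons share 26 bases with JDP2, stayed between 0.544 and 0.668 TPM. The ratio of JDP2 to ATF3 within a library was 6.23 and 3.71 in sh-NC and 5.10 and 4.01 in sh-PURB, which overlapped.

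DDIT3 (chromosome 12, 57516588 to 57521737, minus strand) encodes CHOP, a C/EBP-related factor tied to death in prolonged stress. It stood at 9.50 and 8.56 TPM in sh-NC and at 12.4 and 9.005 TPM in sh-PURB. Replicate 1 of sh-PURB was above both controls, and replicate 2 lay between them. The ratio of means was 1.18, and the log2(TPM + 1) difference was 0.21 with a 95% interval from -0.27 to 0.69 (limma adjusted p = 0.664). Without sh-PURB replicate 1 the difference was -0.002. Exons of DDIT3 share 355 bases with MARS1, the methionyl-tRNA synthetase gene on the opposite strand, which stood at 59.4 and 45.6 TPM in sh-NC and at 103 and 95.7 TPM in sh-PURB. The part that reads from MARS1 may have in the DDIT3 values was not tested.

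CEBPB and CEBPG encode C/EBP proteins that can pair with ATF4, CEBPB with activating and inhibitory isoforms and CEBPG lacking an activation domain of its own. CEBPB (chromosome 20, 50190734 to 50192689, plus strand) stood at 8.04 and 8.93 TPM in sh-NC and at 7.16 and 7.21 TPM in sh-PURB. It was the only one of the 10 genes with both sh-PURB libraries below both controls. Its log2(TPM + 1) difference was -0.21, with a 95% interval from -0.56 to 0.14 (limma adjusted p = 0.529). CEBPG (chromosome 19, 33373330 to 33382686, plus strand) stood at 5.26 and 6.13 TPM in sh-NC and at 7.69 and 7.26 TPM in sh-PURB. Both sh-PURB libraries were above both controls, at 1.18 to 1.46 times single controls. The CEBPG difference was 0.34, with a 95% interval from -0.04 to 0.73 (limma adjusted p = 0.364).

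The ratio of the C/EBP pair follows from the values of both genes, since CEBPG lay above and CEBPB below the controls, and it is given only to show its size. Within a library, CEBPG TPM divided by CEBPB TPM was 0.654 and 0.686 in sh-NC and 1.07 and 1.01 in sh-PURB, so CEBPB was the more abundant mRNA in both controls and CEBPG was slightly the more abundant in both sh-PURB libraries. Such a ratio does not depend on how a library is scaled. The antisense transcript CEBPB-AS1, which shares 231 exonic bases with CEBPB, was at 0.413 to 0.554 TPM.

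Among the effectors, CHAC1, which encodes an enzyme that breaks down glutathione, had the largest difference of the 10 genes. CHAC1 (chromosome 15, 40952962 to 40956519, plus strand) stood at 0.530 and 1.29 TPM in sh-NC and at 7.56 and 3.66 TPM in sh-PURB. The groups were apart, but both were wide, and single sh-PURB libraries were at 2.83 to 14.3 times single controls. The ratio of means was 6.15. The log2(TPM + 1) difference was 1.75 with a standard error of 0.38 (limma adjusted p = 0.138), at the 99.4th percentile of all tested genes. It was 2.37 and called in the protein-coding fit (limma adjusted p = 0.0266), and with a pseudocount of 0.1 it was 2.52 (limma adjusted p = 0.155). At these low levels the size of the difference rests on the pseudocount. As only 1 control library reached 1 TPM, CHAC1 passed the filter on low values through the group in which it is high.

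NUPR1 (chromosome 16, 28532708 to 28539174, minus strand) encodes a small stress-induced chromatin protein and was the most abundant of the 10 after ATF4. It stood at 20.7 and 14.8 TPM in sh-NC and at 34.3 and 31.3 TPM in sh-PURB. The groups were apart, with a ratio of means of 1.85. The log2(TPM + 1) difference was 0.87 with a standard error of 0.18 (limma adjusted p = 0.131), and 0.95 in the protein-coding fit (limma adjusted p = 0.0416).

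PPP1R15A (chromosome 19, 48872392 to 48876057, plus strand) encodes GADD34, the stress-induced phosphatase subunit that removes the phosphate from eIF2 alpha and so closes the loop. It stood at 4.06 and 6.04 TPM in sh-NC and at 4.73 and 5.34 TPM in sh-PURB. Both sh-PURB libraries fell between the controls, and the ratio of means was 0.997. The log2(TPM + 1) difference was 0.01, with a 95% interval from -0.54 to 0.56 (limma adjusted p = 0.985). It was -0.22 without sh-NC replicate 1 and 0.25 without sh-NC replicate 2, so its sign depended on the control library. It was -0.06 without sh-PURB replicate 2. Its constitutive counterpart PPP1R15B, which belongs to the list of eIF2 and phosphatase subunits, was 1.15 times control.

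**Figure D2:**
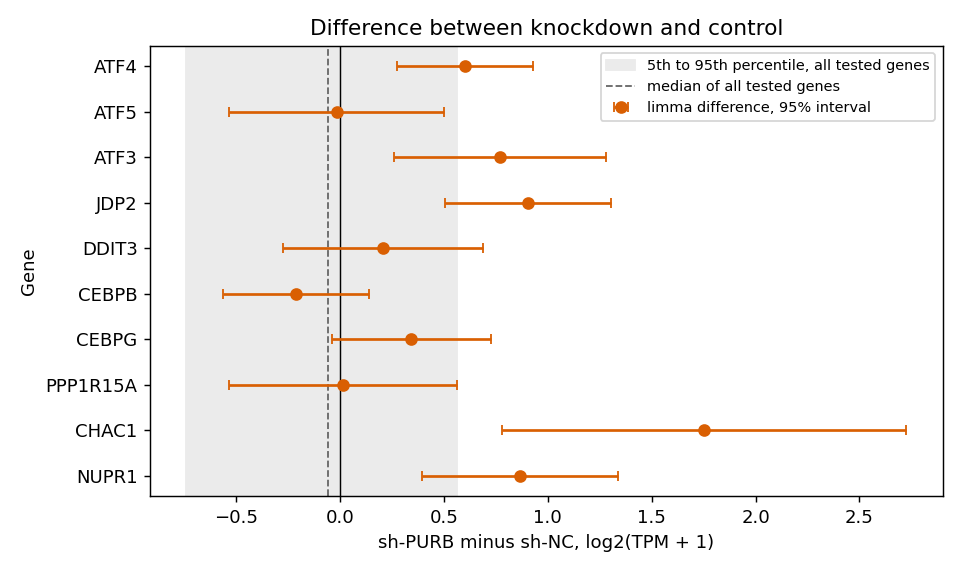
Difference of sh-PURB minus sh-NC in log2(TPM + 1) for each gene, with its 95% interval from the limma fit. The grey band spans the 5th to the 95th percentile of all tested genes (-0.74 to 0.56). ATF4, ATF3, JDP2, CHAC1 and NUPR1 lie to the right of the band, and the intervals of ATF5, DDIT3, CEBPB, CEBPG and PPP1R15A include 0.

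TPM is a share of the library, and the median difference of all tested genes moved from -0.06 to 0.08 when TPM was recomputed without the most abundant and the mitochondrial genes. Set against the median of all genes, the differences varied little over the reported scaling and 4 others: ATF4 between 0.66 and 0.69, JDP2 between 0.94 and 1.02, NUPR1 between 0.89 and 0.97, DDIT3 between 0.25 and 0.29, and CEBPB between -0.16 and -0.15. ATF5 (0.01 to 0.07) and PPP1R15A (0.07 to 0.08) were slightly above that median in all 5. ATF3 (0.82 to 1.03) and CHAC1 (1.75 to 2.39) varied more.

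Levels were also taken relative to ATF4 in the same library, which cancels the library's scale. Since ATF4 itself stood at 1.53 times control, 75.9% of the other 14268 tested genes were lower relative to ATF4 in both sh-PURB libraries, and 2.41% were higher. JDP2 divided by ATF4 was 0.0601 and 0.0555 in sh-NC and 0.0739 and 0.0755 in sh-PURB. NUPR1 divided by ATF4 was 0.126 and 0.0978 in sh-NC and 0.130 and 0.145 in sh-PURB. CHAC1 relative to ATF4 differed most in size, with a ratio of the group means of 3.86. For these 3 genes each sh-PURB library had a higher ratio than either control. For NUPR1 the groups lay close, at 0.126 in sh-NC replicate 1 and 0.130 in sh-PURB replicate 1. CHAC1 passed the filter through the group in which it is high, so its place here is no support. DDIT3 divided by ATF4 was lower in both sh-PURB libraries, at 0.0581 and 0.0565 in sh-NC and 0.0468 and 0.0416 in sh-PURB. The same held for CEBPB, ATF5 and PPP1R15A relative to ATF4, whose ratios of group means were 0.558, 0.654 and 0.658. These 4 lower ratios restate the higher ATF4 level, as they do for most genes, and are no result about the 4 genes. For PPP1R15A the groups all but met, at 0.0248 in sh-NC replicate 1 and 0.0247 in sh-PURB replicate 2. ATF3 and CEBPG relative to ATF4 overlapped between the groups. All these ratios share the ATF4 value of their library, so they are not separate measurements of ATF4.

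**Figure D3:**
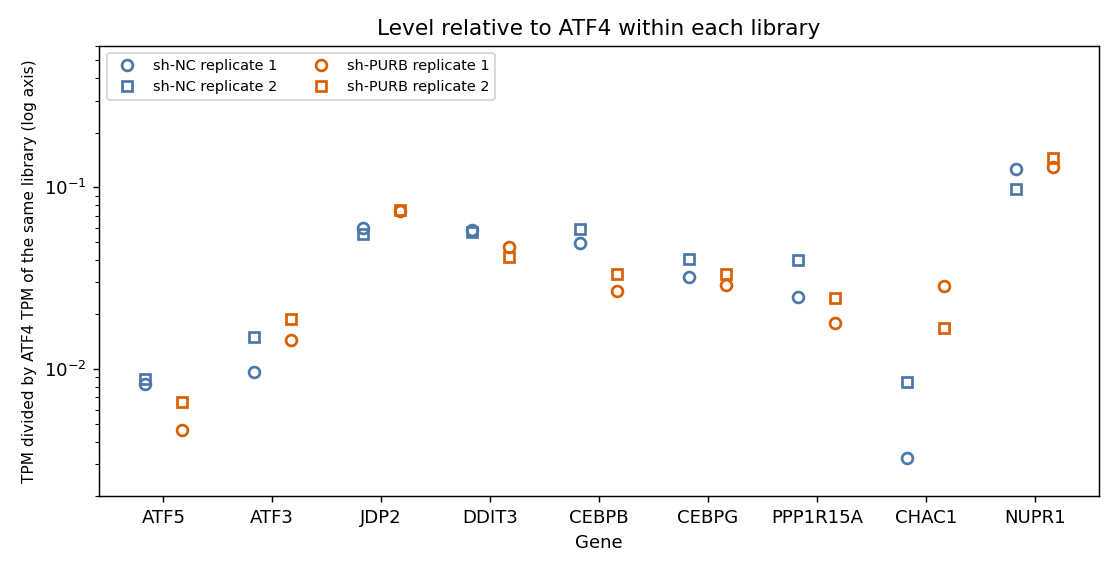
TPM of each of the other 9 genes divided by ATF4 TPM of the same library (log axis). Points are libraries. JDP2, CHAC1 and NUPR1 are higher relative to ATF4 in both sh-PURB libraries (2.41% of all other tested genes are), DDIT3, CEBPB, PPP1R15A and ATF5 are lower (75.9% are), and ATF3 and CEBPG overlap. CHAC1 passed the filter through the group in which it is high.

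The genes upstream of ATF4 were described next. Among the eIF2 alpha kinases and their inputs, 9 genes were tested, none passed an adjusted p of 0.05 in limma or an unadjusted p under 0.05, and the median difference was -0.06, like that of all tested genes. EIF2AK1, the kinase that relays mitochondrial stress, was at 26.5 and 29.8 TPM in sh-NC against 31.2 and 35.6 TPM in sh-PURB, and OMA1, a mitochondrial protease that acts ahead of it, was at 11.99 and 12.5 against 10.9 and 10.5 TPM. EIF2AK4, the sensor of uncharged tRNA, and its activator GCN1 were 1.13 and 1.19 times control. Of 12 eIF2, eIF2B and phosphatase subunits, 0 passed the adjusted limma threshold, while 2 were higher and 1 was lower when p was left unadjusted at 0.05 (5.77% and 9.53% of all genes), with a median of 0.11. The 2 higher were the eIF2 subunits EIF2S1 (80.8 and 74.3 against 134 and 94.6 TPM) and EIF2S2 (31.0 and 32.7 against 52.0 and 42.4 TPM). The lower was PPP1CA, a catalytic subunit of protein phosphatase 1, with 70.9 and 69.1 TPM in sh-NC against 49.5 and 47.8 TPM in sh-PURB. EIF2B3 of the exchange factor was 1.32 times control.

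Most genes downstream of ATF4 stood higher in sh-PURB. Of 32 tested ATF4 target genes, 30 had both sh-PURB libraries above the controls and 2 below (18.6% and 29.3% of all genes), and at an unadjusted p under 0.05 there were 29 higher and 1 lower (5.77% and 9.53% of all genes). The lower was DDIT4, a stress-induced inhibitor of mTORC1, at 55.6 and 58.1 TPM in sh-NC against 45.6 and 45.2 TPM in sh-PURB, named after its values were seen. The median difference was 0.79. Over all genes limma called 1 of them, ASNS (asparagine synthetase, 3.18 times control, limma adjusted p = 0.0464), and the protein-coding fit called 22 higher (1.32% of all its genes) and 0 lower. ALDH1L2 of mitochondrial folate metabolism went from 2.03 and 1.74 TPM to 5.84 and 6.22 TPM, PCK2 was 2.34 times control, and the hormone FGF21 was 6.49 times control from a level under 1 TPM. FGF21 passed the filter only through its sh-PURB libraries. Without it the counts of 31 genes were 29 above and 2 below, 28 higher and 1 lower before adjustment of p, and 21 called higher in the protein-coding fit, with a median of 0.74. The list and the 10 genes were both chosen with earlier results of these data known, so these counts are no independent support. They were compared by these counts, with no test between them.

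The lists of CHOP and of the other stress branches were read against the all-gene shares of 0.287% at the adjusted threshold and of 5.77% (higher) and 9.53% (lower) for an unadjusted p under 0.05. With so few genes called over all, 0 calls in a list is no result about it. Of 6 genes linked to CHOP and to cell death or survival, 0 passed the adjusted limma threshold or an unadjusted p under 0.05 (median 0.14). As the list mixes genes of death and survival, its median has no single direction to be read. BCL2L11 was at 3.67 and 4.92 TPM in sh-NC against 5.07 and 8.59 TPM in sh-PURB, and BBC3 was 1.17 times control. PMAIP1, known as a target of ATF4 too but not in the list of targets above, was 0.799 of control. BCL2 stood at 0.552 and 0.698 TPM in the controls and at 1.06 and 1.10 TPM in sh-PURB, through which alone it passed the filter, and the median of the other 5 genes was 0.09. Of 18 endoplasmic reticulum genes that ATF6 and XBP1 induce, 0 passed the adjusted limma threshold, while an unadjusted p under 0.05 was reached by 7 that were lower and 0 that were higher, with a median of 0.03. The chaperone HSP90B1 was 0.743 of control, the disulfide isomerases PDIA4 and PDIA6 were 0.717 and 0.711, and CRELD2 was 0.686. Of 10 mitochondrial chaperones and proteases, 0 passed the adjusted threshold in limma, 1 was higher (HSPA9, 1.35 times control) and 1 lower (SPG7, 0.539) at an unadjusted p under 0.05, and the median was 0.21. TRAP1 and DNAJA3 were 1.21 and 1.25 times control. Of 8 heat shock genes of HSF1, 0 passed the adjusted limma threshold and 1 was lower at an unadjusted p under 0.05 (DNAJB1, 0.763 of control). HSPA1A, HSPA1B and HSPH1 were 0.797, 0.821 and 1.21 times control, and the median was -0.20.

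At an unadjusted p under 0.05, the other bZIP factors lay close to the all-gene shares. Of 28 tested, 9 were above and 19 below 0, 0 passed the adjusted limma threshold over all genes, an unadjusted p under 0.05 was reached by 2 that were higher and 3 that were lower (5.77% and 9.53% of all genes), and the median was -0.13. MAFF, a small MAF protein, was at 44.8 and 42.0 TPM in sh-NC against 12.6 and 18.2 TPM in sh-PURB, and JUNB, an AP-1 subunit, at 24.6 and 26.5 against 9.19 and 11.9 TPM. Both were called lower in the protein-coding fit (limma adjusted p = 0.00932 and 0.0110). They were the only 2 of the list called there, where 250 of all 11927 genes were called lower. TEF was 0.561 of control. XBP1, the factor of the IRE1 branch, was 1.34 times control (limma adjusted p = 0.220).

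**Figure D4:**
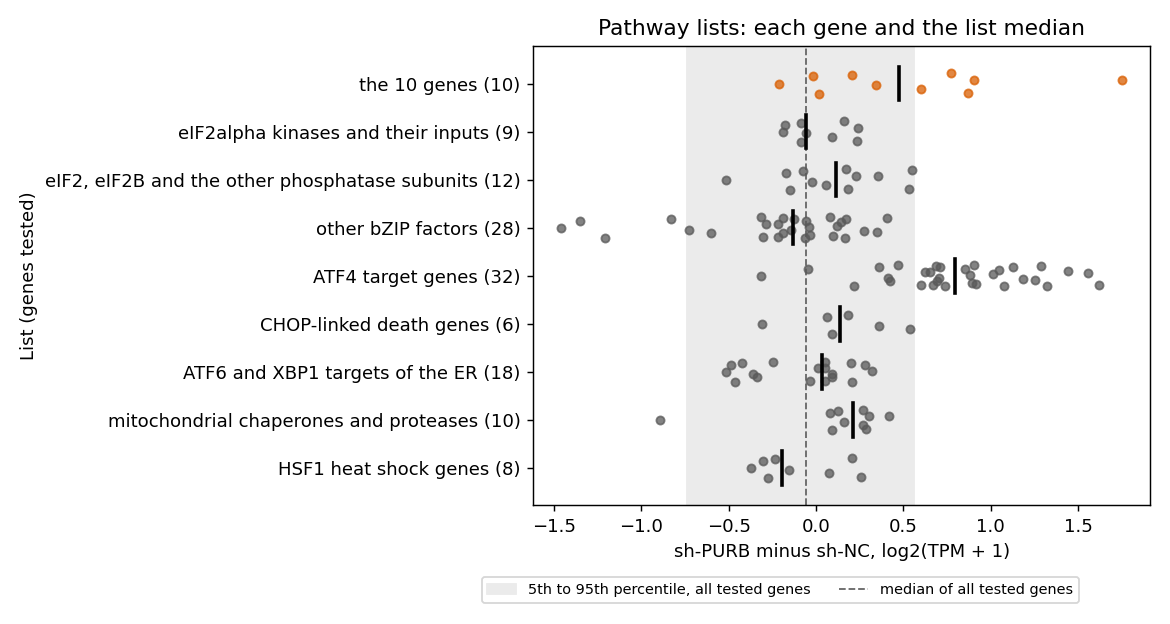
Difference of sh-PURB minus sh-NC in log2(TPM + 1) for each tested gene of the 10 and of 8 pathway lists, with list medians as black bars. Most ATF4 target genes lie right of the 5th to 95th percentile band of all tested genes, while the 10 regulators and effectors spread from -0.21 to 1.75 and the kinase list stays within the band.

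**Figure D5:**
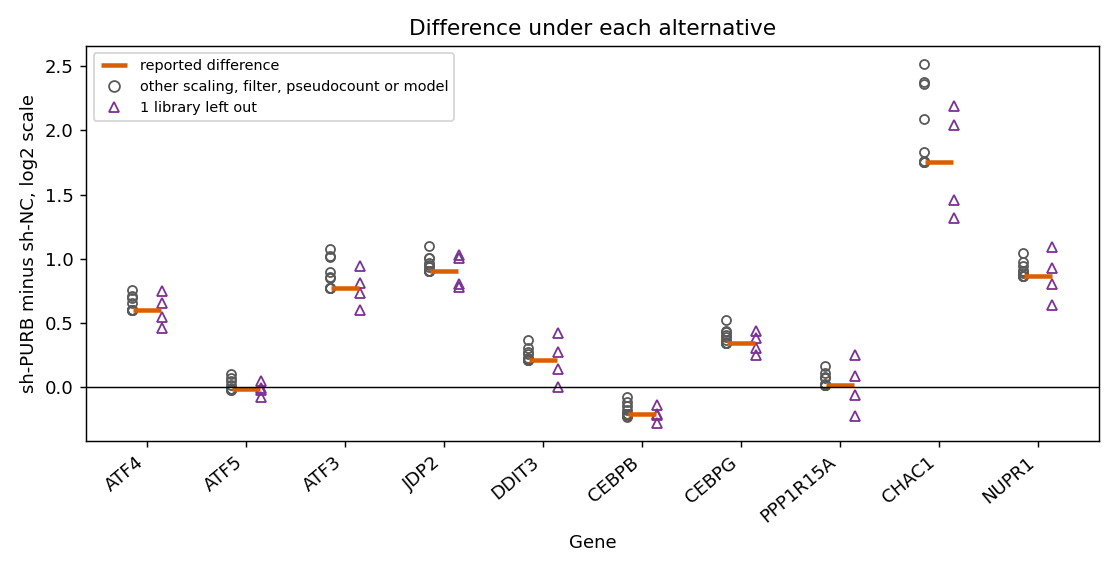
Difference of each of the 10 genes under each alternative, with the reported value as a bar, other scalings, filters, pseudocounts and models as circles and fits without 1 library as triangles. ATF4, ATF3, JDP2, CEBPG, CHAC1 and NUPR1 stay above 0 and CEBPB below 0 throughout, while ATF5, DDIT3 and PPP1R15A cross 0.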

How the data were processed

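RNA was sequenced from 4 libraries of U2OS cells (2 sh-NC, 2 sh-PURB) after ribosomal depletion and TruSeq library preparation, per the labels' protocols. The authors deposited TPM by gene symbol for each library. Named in the submitters' processing notes, without a role, are sleuth, DESeq2, kallisto 0.44.0, bcl2fastq 2.19 and the builds GRCh38 and GRCm38. Annotation release, strand setting and how transcripts became genes are not given in the sources used here. The row without a name (0.921% to 1.66% of a library) was left out, and columns sum to 977570 to 981061. TPM keeps no depth, so no counting interval can be given.

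Genes with at least 1 TPM in at least 2 libraries entered a fit of log2(TPM + 1) in limma 3.58.1 (R 4.3.3) with an intensity trend, 2 residual and 2.92 prior degrees of freedom, and p-values were adjusted by Benjamini-Hochberg over every tested gene (threshold 0.05). For low genes, differences on the log2(TPM + 1) scale come out too small. The 10 genes and the pathway lists were chosen with earlier results of these data known. So were the motifs, which were also picked after the values of the 10 genes had been seen, and the within-library ratios. The text names PURB, all 10 genes, rows named after them, up to 4 tested genes of smallest p from each pathway list, the 3 genes nearest to ATF4 in profile, and overlapping genes found by coordinates, plus cell markers. Outside this rule, PPP1R15B, the ATF4 pseudogenes (all under 1 TPM), FOSB and the genes marked so in the text were named after their values were seen. Of the symbols, 95 did not match GENCODE v29, from which coordinates and gene types came. Figures used Python 3.11.15 and matplotlib 3.10.9. The 15 alternatives are given in the closing section.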

Additional observations from a re-analysis of the deposited data

How the results depend on the processing

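Over the 15 alternatives, ATF4, ATF3, JDP2, CEBPG, CHAC1 and NUPR1 stayed higher and CEBPB lower in every fit that held them (a filter at TPM 5 left out ATF5, ATF3 and CHAC1). ATF5 turned sign with median-ratio rescaling (0.046), quantile normalization (0.074), recomputed TPM (0.099) and protein-coding genes alone (0.019), and it lay between -0.078 and 0.047 with a library left out. DDIT3 lay between -0.0024 and 0.42 and PPP1R15A between -0.22 and 0.25 with a library left out. Members called at an adjusted p under 0.05 were 4 with protein-coding genes alone and 0 in all other limma fits, where 3 to 6 members had an unadjusted p under 0.05. That count was 3 with the filter at TPM 5, and 3 to 5 with a library left out. The members' median was 0.34 with the filter at TPM 5, 0.58 with median ratios as the scale, 0.64 with recomputed TPM, and 0.38 to 0.58 with a library left out. Genes called over all genes were 41, but 0 with a pseudocount of 0.1, without the filter, without the trend and in each fit without a library (which has 1 residual degree of freedom). They were 84 after median-ratio rescaling, 118 with quantile normalization, 121 with the filter at TPM 5, 125 with robust moderation and 407 among protein-coding genes. With the replicate number as a block they were 118, and no member was called. Deviations of same-numbered libraries from their group means correlated across genes (r = 0.19), but with 2 numbers this is a hint only, as no label says that a number marks a shared batch. The cause of these changes was not tested. Depth is unknown, so the precision of genes near 1 TPM, such as ATF5, ATF3 and CHAC1, cannot be judged beyond the spread of 2 libraries.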

Other observations

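Among 8307 tested genes with a mean of at least 5 TPM, the profiles over the 4 libraries nearest to that of ATF4 were those of BOLA2-SMG1P6, FDPS and IPO4, with root mean square differences of 0.0038, 0.014 and 0.017 in centred log2(TPM + 1). FDPS, an enzyme of isoprenoid synthesis, was at 50.9 and 45.9 TPM in sh-NC against 82.1 and 67.3 TPM in sh-PURB. IPO4, a nuclear import receptor, was at 7.50 and 6.84 against 12.5 and 10.5 TPM. With 4 libraries, 2 per group, this likeness is a description only. The nearest of the other 9 stress response genes was JDP2, at 0.16.

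MIR616, a microRNA hairpin within an intron of DDIT3, was listed at 30.8 and 19.6 TPM in sh-NC and at 8.84 and 10.2 TPM in sh-PURB, while DDIT3 itself was at 9.50 and 8.56 against 12.4 and 9.005 TPM. MIR616 was named after its values were seen. Whether its row counts the microRNA or other RNA of that intron was not tested.

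FOS, an immediate early AP-1 gene named after its values were seen, differed more between the libraries of a group than between the groups. It stood at 9.26 and 79.1 TPM in sh-NC and at 2.04 and 40.5 TPM in sh-PURB, with replicate 2 the higher in each. FOSB showed the same order (0.391 and 4.91 against 0.148 and 2.11 TPM). In PPP1R15A and ATF3, stress genes that can also respond as immediate early genes, replicate 2 was likewise the higher in each group, by 6.04 to 4.06 and 5.34 to 4.73 TPM for PPP1R15A. Whether this spread bears on their differences was not tested.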
